A study of Caenorhabditis elegans with 4 samples.

Results

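The miR-72 family of *C. elegans* was examined in small RNA of whole animals at the first larval stage (L1). Its 3 members, miR-72 (cel-mir-72), miR-73 (cel-mir-73) and miR-74 (cel-mir-74), were chosen by name, and all 3 were found among the 148 miRNA names of the count table. Small RNA was sequenced from 2 libraries of *pry-1(mu38)* animals and 2 libraries of the wild type strain N2. Both strains were grown on standard NGM plates at 20 °C and synchronized by 2 successive bleachings, with no other treatment in either group. *pry-1* encodes the worm Axin, a scaffold protein that holds back WNT signalling, and the *mu38* allele is carried in every cell of the mutant animals. The mutants are described as slow-growing, a limit to matching the strains by age. The *pry-1* transcript itself is not a small RNA, so the genotype could not be checked in these data. Neither the labels nor the methods say that the 2 libraries of a strain came from separate cultures, and p-values therefore measure only the spread between these libraries, which may be technical.

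A miRNA is a short RNA that guides an Argonaute protein to messenger RNAs, mainly by pairing through its seed, bases 2 to 8 counted from the 5′ end, and the bound messages are repressed. miRNAs with the same seed form a family, since they can share targets. The miR-72 family has the seed of miR-31, a miRNA known from insects and vertebrates. Each miRNA is cut from a hairpin, which can leave a mature strand on either of its arms, one of them usually far more abundant than the other.

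The mature sequences are shown because the seed alone defines the family, and because they show how far the members are alike beyond it. Each is written 5′ to 3′, with the seed in capitals.
miR-72: aGGCAAGAuguuggcauagcuga
miR-73: uGGCAAGAuguaggcaguucagu
miR-74: uGGCAAGAaauggcagucuaca
The first 2 are 23 bases long and the third is 22 bases long. miR-72 and miR-73 share an unbroken stretch of 10 bases, from base 2 to base 11, and 16 of 23 positions are identical when they are set side by side from the first base. Compared at equal positions, the unbroken stretch through the seed that miR-74 shares is the seed alone with miR-72. With miR-73 it is the seed together with the first base. Likeness at shifted positions, which the sequences of miR-73 and miR-74 also show, was not measured. Identical positions were 10 of 22 against miR-72 and 11 of 22 against miR-73. Among 161 known *C. elegans* miRNAs with a listed mature sequence, these 3 were the ones with GGCAAGA at bases 2 to 8. Of 2176 known and candidate sequences listed by the study, 7 had these bases. Whether the further entries are separate miRNAs was not examined.

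The members lie at 2 places in the genome (build WBcel235, Ensembl release 115). The hairpin gene of miR-72 (WBGene00003300) spans 99 bp on the forward strand of chromosome II, from 2452838 to 2452936. It lies between protein-coding genes, with *vab-19* ending 1890 bp before it on the same strand and *pqn-42* lying 33 bp after it on the opposite strand. The hairpin gene of miR-73 (WBGene00003301) lies on the forward strand of chromosome X, from 2368765 to 2368863. The hairpin gene of miR-74 (WBGene00003302) follows on the same strand, from 2369043 to 2369139, with a gap of 179 bp. No protein-coding gene overlaps either of them, the nearest being T24D8.6, 2774 bp before miR-73, and F47G3.3, 6845 bp after miR-74. The miR-74 hairpin overlaps exons of 2 annotated non-coding RNAs, T24D8.14 on its own strand and T24D8.16 on the opposite strand. Reads are short and were assigned to miRNAs, but how reads of overlapping genes were handled is not given in the sources used here.

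The libraries held 3284425 and 4651818 counts for *pry-1(mu38)*, against 6651178 and 6491918 for N2, summed over all rows of the miRNA count table. Shares of a library are shares of these sums, not of all small RNA sequenced. In the count table, one library's column can run up to 3 rows ahead of or behind another's, and the values of a row therefore need not belong to a single miRNA. Rows were put together again by matching their sums to a listed read total for each miRNA, and 87 miRNAs were matched. For the 3 members, N2 replicate 2 was displaced by 1 row and the other 3 libraries were in place. After this shift, the sums of miR-72 (1939626 counts) and miR-74 (6862 counts) met their totals exactly, and that of miR-73 (491022 counts) was off by 3 counts. One mutant library stood apart in several heterochronic miRNAs, which act in the timing of development. Levels are given as CPM (counts set to a common library size, with TMM scaling, which corrects for differences in composition between libraries). lin-4 was at 24.9 and 745 CPM in *pry-1(mu38)* replicates 1 and 2, against 18.0 and 19.7 CPM in N2. Of the other 5 such miRNAs, miR-48, miR-84 and miR-241 were highest in *pry-1(mu38)* replicate 2 as well, let-7 was not (4.42 and 7.66 CPM in *pry-1(mu38)*, against 9.16 and 1.97 CPM in N2), and miR-237 had its 2 highest values in *pry-1(mu38)* (951 and 1860 CPM in *pry-1(mu38)*, against 364 and 530 CPM in N2). All 6 summed to 1090 and 3180 CPM in *pry-1(mu38)*, against 495 and 611 CPM in N2, the larger part of it miR-237.

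miR-72 was one of the most abundant miRNAs of L1 animals. It was counted 299296 and 477653 times in *pry-1(mu38)*, against 547694 and 614983 times in N2. These counts were 9.11% and 10.3% of the *pry-1(mu38)* libraries, against 8.23% and 9.47% of the N2 libraries. Over all 4 libraries it held 9.2% of the counts and was the fourth most abundant matched miRNA. It stood after miR-228 (4597473 counts in all), miR-90 (2679127 counts) and miR-235 (2107482 counts) and before miR-82 (1804399 counts). The order was not fixed, since miR-72 was the second most abundant entry in *pry-1(mu38)* replicate 2 and the fifth in N2 replicate 1.

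miR-73 was several-fold less abundant. It was counted 69287 and 76118 times in *pry-1(mu38)*, against 193451 and 152166 times in N2, or 2.11% and 1.64% of the *pry-1(mu38)* libraries, against 2.91% and 2.34% of the N2 libraries. As a share of the library, before any scaling, the mutant libraries were the lower ones and the strains did not overlap. How often unscaled shares do not overlap was not counted over all miRNAs. On TMM-scaled levels the strains did not overlap in 45.9% of the 85 miRNAs tested, and miR-73 was not among those. Its rank among the entries of a library was 14 and 13 in *pry-1(mu38)*, against 9 and 12 in N2.

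miR-74 was a minor member. It was counted 1033 and 1368 times in *pry-1(mu38)*, against 2161 and 2300 times in N2. The shares were 0.0315% (95% Wilson interval 0.0296 to 0.0334) and 0.0294% (0.0279 to 0.0310) in *pry-1(mu38)*, against 0.0325% (0.0311 to 0.0339) and 0.0354% (0.0340 to 0.0369) in N2. The mutant shares were again the lower ones, but the intervals of *pry-1(mu38)* replicate 1 and N2 replicate 1 overlapped. These intervals cover counting error within a library only. No molecular identifiers are described in the sources used here, so reads copied in amplification could not be told apart. The order miR-72, miR-73, miR-74 was the same in each of the 4 libraries.

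**Figure D1:**
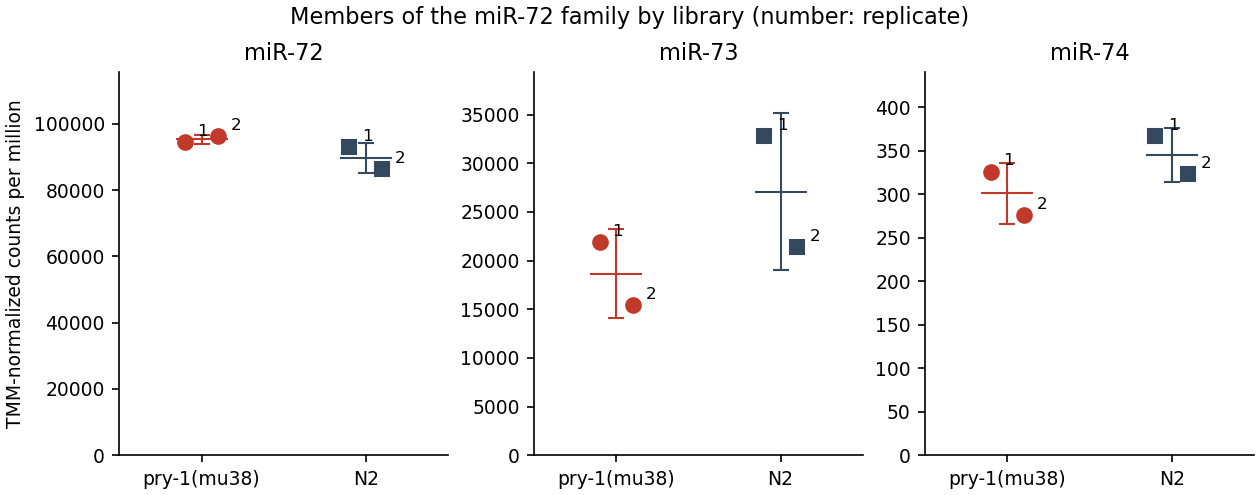
TMM-scaled CPM (vertical axes, linear and starting at 0) of miR-72, miR-73 and miR-74 in *pry-1(mu38)* (circles) and N2 (squares), with the replicate number beside each point and the mean ± SD of 2 libraries as a bar. The 2 strains overlap for miR-73 and miR-74, while for miR-72 the mutant points (94400 and 96300) lie above the N2 points (92900 and 86400).

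The first comparison asked whether loss of *pry-1* function goes with another level of the members. None of the 3 passed the test between the strains (edgeR quasi-likelihood test over 85 miRNAs, Benjamini-Hochberg adjusted p under 0.05), which 1.18% of all miRNAs tested did. That single call was miR-2209c, whose row placement is doubtful and which was named after its values were seen, and 7 of the 85 had an unadjusted p under 0.05. No member was among these 7, and DESeq2's Wald test did not call a member either. In whole animals, fewer cells that make a miRNA and less of it per cell cannot be told apart.

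miR-72 was at 94400 and 96300 CPM in *pry-1(mu38)*, against 92900 and 86400 CPM in N2. The mutant libraries were thus slightly the higher ones on this scale, although as a share of the library the strains overlapped. The means were 95400 ± 1370 CPM in *pry-1(mu38)* and 89700 ± 4600 CPM in N2 (SD, n = 2 each), and the log2 fold change was 0.09 (SE 0.21, 95% interval -0.45 to 0.63, edgeR adjusted p = 0.908). This value is close to 0, and its sign depended on the scaling and on *pry-1(mu38)* replicate 2, without which it was -0.17. TMM-scaled levels did not overlap between the strains in 45.9% of all miRNAs tested, 23 of them higher and 16 lower in *pry-1(mu38)*, against 1 of the 3 members.

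miR-73 was at 21900 and 15400 CPM in *pry-1(mu38)*, against 32800 and 21400 CPM in N2. *pry-1(mu38)* replicate 1 and N2 replicate 2 were nearly level and N2 replicate 1 was the highest, so the strains overlapped. The means were 18600 ± 4600 CPM in *pry-1(mu38)* and 27100 ± 8090 CPM in N2 (SD, n = 2 each). The fold of *pry-1(mu38)* over N2 was 0.686, a log2 fold change of -0.54 (SE 0.34, 95% interval -1.42 to 0.34, edgeR adjusted p = 0.528). The value was -0.20 without N2 replicate 1 and -0.82 without N2 replicate 2, so that its size rested on which N2 library was used, and it was -0.55 without *pry-1(mu38)* replicate 2.

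miR-74 was at 326 and 276 CPM in *pry-1(mu38)*, against 367 and 323 CPM in N2. *pry-1(mu38)* replicate 1 lay just above N2 replicate 2, and the strains overlapped. The means were 301 ± 35.3 CPM in *pry-1(mu38)* and 345 ± 30.7 CPM in N2 (SD, n = 2 each), and the log2 fold change was -0.20 (SE 0.32, 95% interval -1.03 to 0.63, edgeR adjusted p = 0.841), or -0.32 without *pry-1(mu38)* replicate 2. The intervals of all 3 members ran from below 0 to above 0, so that neither a rise nor a fall could be told at 2 libraries a strain.

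Set among all miRNAs tested, miR-72 and miR-74 lay in the middle of the range and miR-73 lower. The median log2 fold change of the 85 miRNAs was 0.08 and the middle 50% lay between -0.28 and 0.43. Relative to that median, miR-72 was at 0.01, miR-73 at -0.62 and miR-74 at -0.27. In size of change, 12 of the 85 miRNAs moved less than miR-72, 57 less than miR-73 and 26 less than miR-74. Over 4 ways of scaling the libraries, the median of all miRNAs ran from -0.14 to 0.13. Relative to it miR-72 lay between 0.0022 and 0.01, miR-73 between -0.64 and -0.62 and miR-74 between -0.29 and -0.27. These are differences of log2 fold changes. A scaling moves all miRNAs by nearly the same amount, so these narrow ranges follow from the method and are no check on the members.

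**Figure D2:**
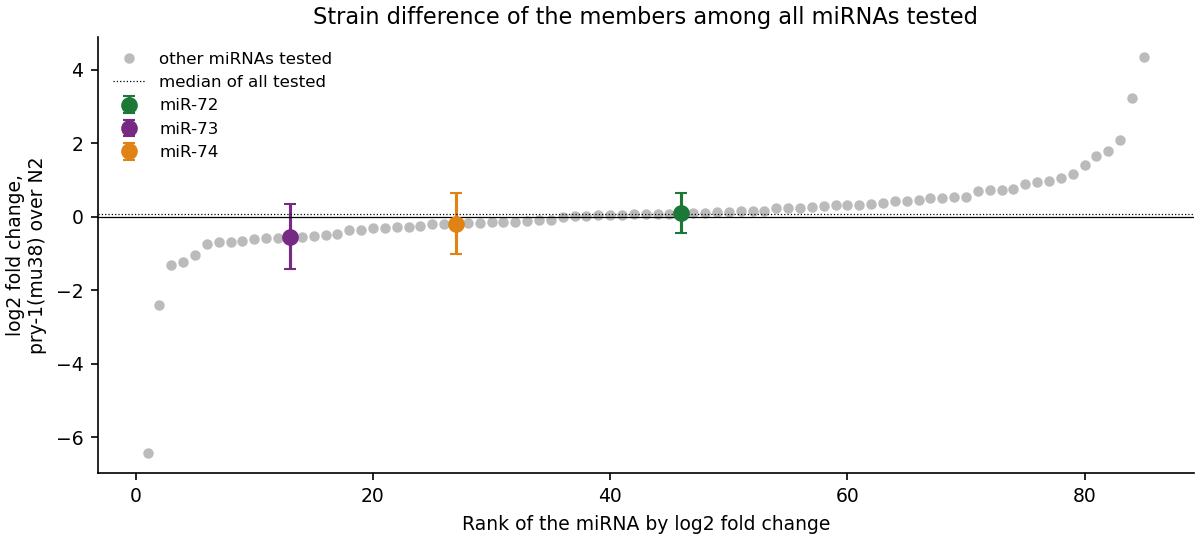
Log2 fold changes, *pry-1(mu38)* over N2 (vertical axis), of the 85 miRNAs tested, ordered by that value (horizontal axis), with the 3 members in colour and their 95% intervals as bars. The intervals of miR-72 (0.09), miR-73 (-0.54) and miR-74 (-0.20) all include 0.

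The family as a whole kept a nearly even share of the miRNA counts. Its 3 members together took 11.3% and 11.9% of the *pry-1(mu38)* libraries, against 11.2% and 11.9% of the N2 libraries. The spread within each strain was far larger than the difference between the strains, with means of 11.6% ± 0.481 in *pry-1(mu38)* and 11.5% ± 0.479 in N2 (SD, n = 2 each). The difference was 0.0797 percentage points, with p = 0.667 in an exact two-sided permutation test over the libraries, which cannot give a p under 0.333 with 2 libraries a strain. The 95% Wilson interval of a library reached at most 0.034 percentage points to either side, so counting error was small beside the spread between libraries. The direction turned without *pry-1(mu38)* replicate 2 (-0.260 percentage points) or without N2 replicate 1 (-0.259 percentage points). As TMM-scaled levels the sums were 116569 and 111952 CPM in *pry-1(mu38)*, against 126096 and 108101 CPM in N2. The summed family entered into the fit in place of its members gave a log2 fold change of -0.04 (SE 0.23, 95% interval -0.63 to 0.56, edgeR adjusted p = 0.957), and 0.08 without N2 replicate 1.

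Within this share the members took different parts. miR-72 made up 81.0% and 86.0% of the family in *pry-1(mu38)*, against 73.7% and 79.9% in N2. Both mutant libraries were above both N2 libraries, although *pry-1(mu38)* replicate 1 exceeded N2 replicate 2 by little. The means were 83.5% ± 3.58 in *pry-1(mu38)* and 76.8% ± 4.41 in N2 (SD, n = 2 each), a difference of 6.7 percentage points with an exact permutation p of 0.333, the smallest this design allows, and 0.666 after adjustment over the 4 measures tested in this way. Without *pry-1(mu38)* replicate 2 the difference was 4.17 percentage points, and without N2 replicate 1 it was 3.58. miR-73 made up 18.7% and 13.7% of the family in *pry-1(mu38)*, against 26.0% and 19.8% in N2. miR-74 made up 0.279% and 0.246% of the family in *pry-1(mu38)*, against 0.291% and 0.299% in N2.

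Ratios between members need no scaling of the libraries. There were 4.32 and 6.28 counts of miR-72 for each count of miR-73 in *pry-1(mu38)*, against 2.83 and 4.04 in N2. On the log2 scale the ratio averaged 2.38 ± 0.381 in *pry-1(mu38)* and 1.76 ± 0.363 in N2 (SD, n = 2 each). The difference of 0.62 had an exact permutation p of 0.333, adjusted 0.666, and the 4 libraries did not overlap between the strains. On TMM-scaled levels the strains did not overlap in 45.9% of the 85 miRNAs tested. The same was not counted for ratios or for shares within a family. Since miR-74 was a minor part of the family, this ratio nearly repeats the miR-72 share and is not a second observation. Leaving out each library in turn gave differences from 0.35, without *pry-1(mu38)* replicate 2, to 0.89, without *pry-1(mu38)* replicate 1.

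**Figure D3:**
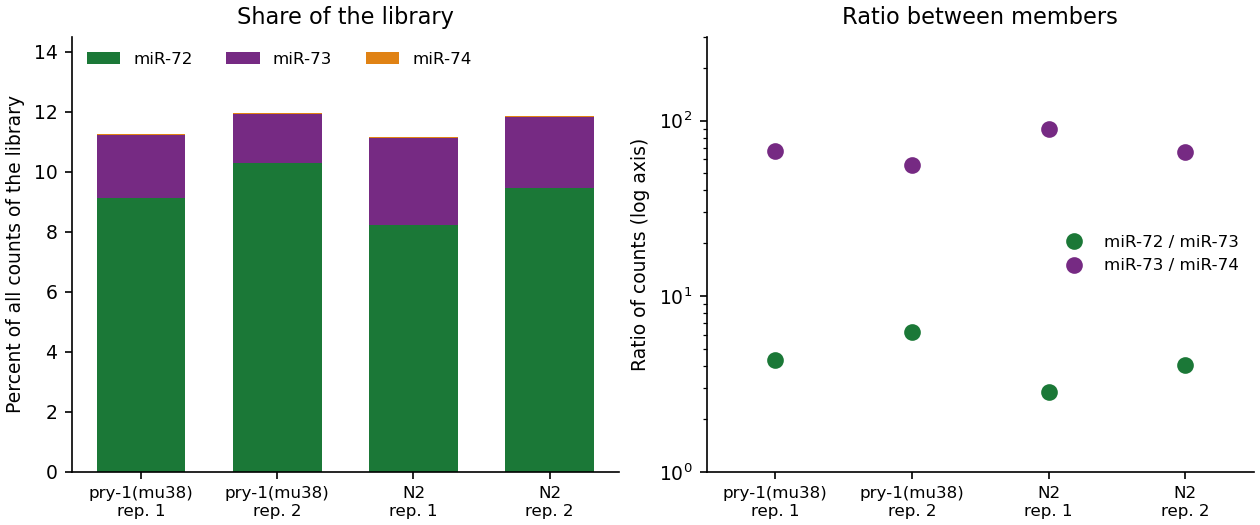
Left, the percent of all counts of each library taken by miR-72, miR-73 and miR-74, stacked in that order (miR-74, at 0.0294% to 0.0354%, is too thin to be seen); right, the ratio of counts of miR-72 to miR-73 and of miR-73 to miR-74 in each library on a log axis. The bars reach 11.3% and 11.9% in *pry-1(mu38)*, against 11.2% and 11.9% in N2, while the ratio of miR-72 to miR-73 is 4.32 and 6.28 in *pry-1(mu38)*, against 2.83 and 4.04 in N2.

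miR-73 and miR-74, although neighbours on one strand, were counted at very unequal levels. There were 67.1 and 55.6 counts of miR-73 for each count of miR-74 in *pry-1(mu38)*, against 89.5 and 66.2 in N2. *pry-1(mu38)* replicate 1 and N2 replicate 2 were nearly level, and the strains overlapped. The log2 ratio averaged 5.93 ± 0.191 in *pry-1(mu38)* and 6.27 ± 0.308 in N2 (SD, n = 2 each), a difference of -0.33 with an exact permutation p of 0.667, adjusted 0.667. Without *pry-1(mu38)* replicate 2 the difference was -0.20.

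The pair was set beside the other matched miRNAs whose hairpins start within 10 kb of each other on one strand, 11 pairs in all. At a mean ratio of 68.6-fold, miR-73 and miR-74 were less alike in level than 7 of the pairs, whose means began at 3.59-fold for miR-90 and miR-80. The widest ratio was 2420-fold for miR-44 and miR-43. The counts of miR-44 were identical to those of miR-45, so that this widest ratio may hold reads of both genes. The shift of the ratio between the strains was smaller in 2 of the 11 pairs. The third miRNA gene of the stretch, miR-75, lies 3313 bp after miR-74 on the same strand and has another seed. It was at 132 and 77.4 CPM in *pry-1(mu38)*, against 52.1 and 72.5 CPM in N2, with a log2 fold change of 0.74 (SE 0.44, edgeR adjusted p = 0.528). There were 2.48 and 3.56 counts of miR-74 for each count of miR-75 in *pry-1(mu38)*, against 7.04 and 4.46 in N2. For miR-73 and miR-75 the ratios were 166 and 198 in *pry-1(mu38)*, against 630 and 295 in N2. In both of these pairs the 2 mutant ratios were the lower ones, with shifts of -0.92 and -1.25 on the log2 scale that were not tested. Both pairs hold miR-75, so they are not separate observations. The strains also did not overlap for miR-71 and miR-2, miR-90 and miR-238, and miR-230 and miR-791. In the remaining pairs they overlapped.

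**Figure D4:**
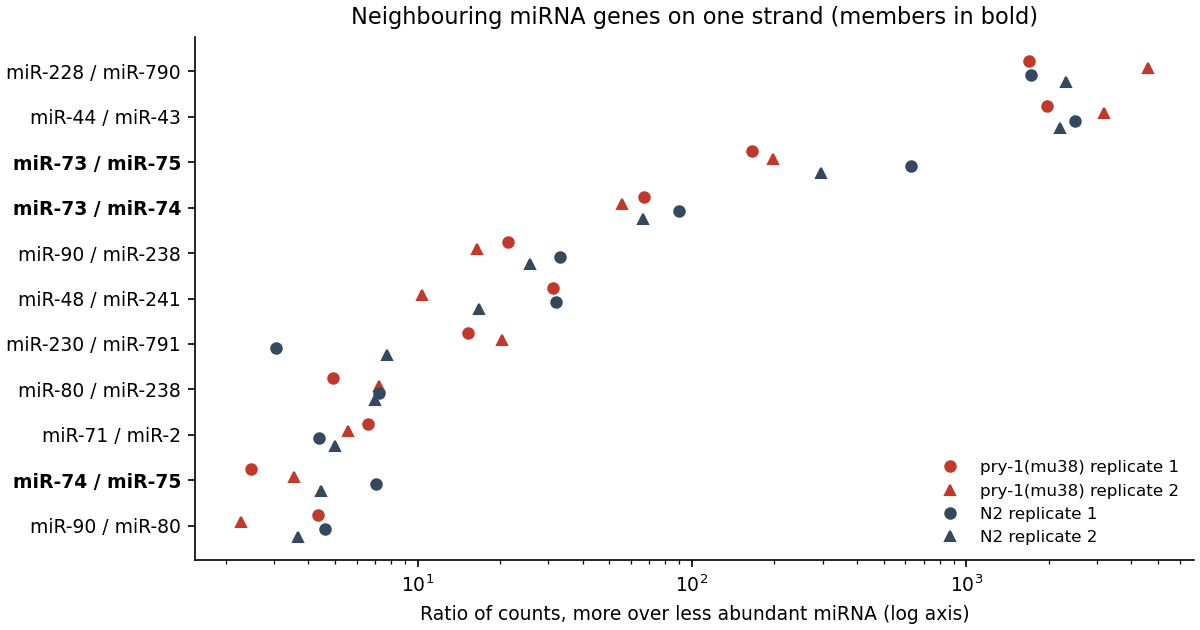
The ratio of counts of the more to the less abundant miRNA (horizontal log axis) in the 11 pairs of matched miRNA genes that start within 10 kb of each other on one strand, ordered by their mean ratio, with *pry-1(mu38)* in red and N2 in dark blue, replicate 1 as circles and replicate 2 as triangles. Pairs with miR-73 or miR-74 are in bold, and the 4 points of miR-73 and miR-74 lie between 55.6 and 89.5.

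The 2 mutant libraries were then compared with each other. In *pry-1(mu38)*, replicate 2 over replicate 1 was 1.02-fold for miR-72, 0.702-fold for miR-73 and 0.847-fold for miR-74, on TMM-scaled levels. In N2 the same ratio was 0.930-fold for miR-72, 0.651-fold for miR-73 and 0.882-fold for miR-74. On this scale the members thus differed between the libraries of a strain by similar amounts in both strains, miR-73 most and miR-72 least. As unscaled shares of the library, miR-73 still differed most in fold, but miR-74 differed least. From replicate 1 to replicate 2, miR-72 went from 9.11% to 10.3% in *pry-1(mu38)* and from 8.23% to 9.47% in N2. miR-74 went from 0.0315% to 0.0294% in *pry-1(mu38)* and from 0.0325% to 0.0354% in N2. On TMM-scaled levels, the median absolute log2 difference of all 85 miRNAs was 0.51 in *pry-1(mu38)* and 0.30 in N2. On these levels 14 miRNAs differed over 2-fold in *pry-1(mu38)*, against 5 in N2. None of the members was among them. In *pry-1(mu38)*, 6 of the 85 miRNAs differed less than miR-72, 42 less than miR-73 and 22 less than miR-74, against 12, 61 and 25 in N2. With 1 ratio a strain, none of these differences has a test.

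**Figure D5:**
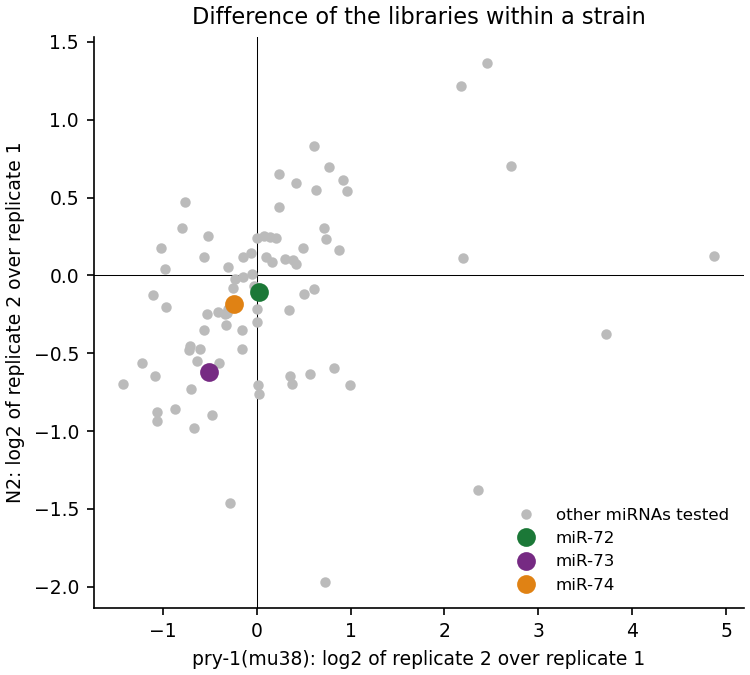
The log2 of replicate 2 over replicate 1 within *pry-1(mu38)* (horizontal axis) and within N2 (vertical axis) for each of the 85 miRNAs tested, on TMM-scaled levels. miR-72 (0.03 in *pry-1(mu38)*, -0.10 in N2) and miR-74 (-0.24 and -0.18) lie close to the centre and miR-73 (-0.51 and -0.62) lies low in both strains, away from the miRNAs at the right that were over 2-fold higher in *pry-1(mu38)* replicate 2.

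A second row of the same name was present for miR-72 and miR-74 and absent for miR-73. The count table names only the hairpin, so that it is not shown which strand such a row counts. These rows were placed by their matched neighbours and were not checked by totals. For miR-72 the second row held 1140 and 865 counts in *pry-1(mu38)*, against 1556 and 1943 counts in N2, or 0.379% and 0.181% of both rows in *pry-1(mu38)*, against 0.283% and 0.315% in N2. For miR-74 it held 554 and 305 counts in *pry-1(mu38)*, against 858 and 863 counts in N2. This was 34.9% (95% Wilson interval 32.6 to 37.3) and 18.2% (16.5 to 20.2) of both rows in *pry-1(mu38)*, against 28.4% (26.8 to 30.1) and 27.3% (25.8 to 28.9) in N2. The second row thus held a small remainder for miR-72 and a sizeable part for miR-74. Over 38 names with both rows the median share was 8.58% and 5.78% in *pry-1(mu38)*, against 8.21% and 7.13% in N2. For both members the share was highest in *pry-1(mu38)* replicate 1 and lowest in *pry-1(mu38)* replicate 2, an order seen in 10 of the 38 names, and the N2 libraries lay between them.

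The members were not each other's nearest in pattern over the libraries. Likeness was measured as the Euclidean distance between log2 levels, each centred on its own mean over the 4 libraries, against the 84 other miRNAs. Nearest to miR-72 were miR-4810 (0.107), miR-248 (0.149) and miR-787 (0.201), against a median distance of 0.708. Of these, miR-4810 held only 8 to 17 counts a library, so its nearness rests on few reads. Nearest to miR-73 were miR-49 (0.181), miR-251 (0.198) and miR-90 (0.264), against a median of 0.923. Nearest to miR-74 were miR-46 (0.134), miR-87 (0.193) and miR-86 (0.194), against a median of 0.703. The closest pair of members was miR-72 and miR-74, with a distance of 0.35, at which miR-74 stood 16th in likeness to miR-72. miR-73 stood 49th in likeness to miR-72, with a distance of 0.815, and miR-74 stood 11th in likeness to its neighbour miR-73, with a distance of 0.493. Distances over 4 libraries are a description and carry no test.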

How the data were processed

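Small RNA was measured in 2 *pry-1(mu38)* and 2 N2 libraries of L1 animals, grouped by the strain given in the labels. The deposited values are raw counts of reads, not normalized by the authors. The reads are described as perfectly matching WBcel235 and annotated with miRBase and miRDeep2. The paper's number of perfectly aligned sequences is smaller than the counts of all libraries together, which the sources used here do not explain. The submitters' processing notes also name BWA and DESeq. Versions are not given in the sources used here.

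The table had 219 rows, 148 names, 2 empty cells and 0 columns without a sample. Of 126 names with a listed read total, 87 were matched, 30 of them as deposited, 52 after a shift of up to 3 rows and 5 within 0.1% of the total. 39 were not matched. The counts of miR-44 and miR-45 were the same, so these 2 names made 1 entry, for 86 entries in all. A further 73 rows were placed by matched neighbours and used for second rows of a name and an alternative only. Matched rows held 91.0% and 89.8% of the *pry-1(mu38)* counts, against 90.6% and 89.7% of the N2 counts. Mature sequences came from the study's miRNA list, and places from the Ensembl annotation.

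Two-sided tests used edgeR 4.0.16 (R 4.3.3) on all 4 libraries with no covariate: TMM factors from totals over all rows (0.965 and 1.07 in *pry-1(mu38)*, 0.886 and 1.10 in N2), filterByExpr (minimum count 10), glmQLFit, glmQLFTest and Benjamini-Hochberg adjustment over 85 miRNAs. Summed counts of the family were fitted over 83 rows with the same factors. Shares and ratios were compared by exact permutation (SciPy 1.17.1). Patterns and replicate differences used log2(CPM + 0.5). The alternatives were DESeq2 1.42.0, other scalings and filters, other row placements, a block on the replicate number and leaving out each library.

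Besides the members, the text names known miRNAs with the same seed, the 3 nearest in pattern and clustered pairs within 10 kb. It also names the 5 most abundant, neighbouring genes and 6 heterochronic miRNAs. A list of 8 embryonic miRNAs (miR-35 to miR-42) is not reported, since 0 of them were matched to a total. The members and lists were chosen with earlier results of these data known.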

Additional observations from a re-analysis of the deposited data

How the results depend on the processing

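No member passed the threshold under any alternative. Leaving aside the displaced rows, adjusted p-values over 14 alternatives ran from 0.808 to 0.999 for miR-72, 0.168 to 0.958 for miR-73, 0.489 to 0.958 for miR-74 and 0.597 to 0.999 for the summed family. miR-73 had an unadjusted p of 0.0165 with upper-quartile scaling of edgeR's fit, where it was at -0.78. Signs of values near 0 turned: miR-72 was at -0.13 with upper-quartile scaling, at -0.0400 where every library had to hold 10 counts or more, and at -0.0077 without miR-228, and the summed family was at 0.00995 with library totals alone. Rows as deposited, which mix miRNAs, gave log2 fold changes of 1.25 for miR-72, 0.37 for miR-73, 0.86 for miR-74 and 1.07 for the sum. They also gave a shift of 0.89 in the log2 ratio of miR-73 to miR-74 and a family share difference of 5.98 percentage points. That share difference was 1.11 without miR-228 and 4.81 with every row named as a member. A lone library of a strain was assumed to vary like those of the other strain. Leaving out each library gave log2 fold changes of -0.17 to 0.15 for miR-72, -0.82 to -0.20 for miR-73, -0.32 to -0.10 for miR-74 and -0.25 to 0.080 for the sum. The same ranges were -0.260 to 0.420 percentage points for the family share, 3.58 to 9.82 for the miR-72 share of the family, 0.35 to 0.89 for the log2 ratio of miR-72 to miR-73 and -0.55 to -0.12 for that of miR-73 to miR-74. The single call among all miRNAs became 0 with no filter, with the filter of 10 counts in every library, with rows as deposited, rows placed by neighbours added, or, chosen after seeing the data, without miR-2209c, and ran from 0 to 11 when each library was left out. With the replicate block there were 0 calls, 18 miRNAs had an unadjusted p under 0.05, and miR-73 was at -0.53 (edgeR adjusted p = 0.168). The numbers are not described as shared cultures, and equally numbered libraries deviated together with a correlation of 0.312 over 85 miRNAs. With every library kept, 43 values of members, summed family, shares and ratios had the direction reported under these alternatives, and 8 were reversed. Fold changes among the 43 also lay on the same side of the threshold. For shares and ratios only the direction was compared, since their permutation test cannot reach the threshold. Apart from the values given, the causes of these changes were not tested. Of the members, miR-74 had the fewest counts, at 1033 to 2300 a library.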
